A study of Mus musculus with 18 samples.

Results

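The genes described here are 10 genes of the piRNA and small RNA pathways, chosen by symbol: Piwil1, Piwil2, Piwil4, Mael, Pld6, Tdrkh, Tdrd9, Ago2, Dicer1 and Mov10l1. All 10 of 10 were found among the 28252 genes of the deposited TPM table and among the 53715 genes counted. TPM is a read count divided by gene length and scaled to 1000000 per library, so that levels of different genes can be compared. CPM is a count scaled to 1000000 reads of its library, without the length.

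Oocytes of C57Bl/6j x CBA/J mice were sequenced at 3 stages, in primordial follicles, in primary follicles and as mature oocytes arrested in metaphase II (MII). Each stage had 3 sham and 3 NTY libraries, which gives 18 libraries in 6 groups. All were labelled in vivo, the treatment protocol was given as none, and neither NTY, the sham procedure nor the age of the mice is explained in the labels. The 12 primordial and primary libraries were taken to be laser-microdissected material, amplified from little RNA and captured for coding sequence, with the caps of a stage pooled, and the 6 MII libraries to be collected oocytes made with Smart-seq II. The MII stage and its library method cannot be told apart, so MII levels are set beside the others as a description, with no test. Nothing in the labels says that the replicates are separate animals, so a p-value measures only the spread between these libraries.

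Small RNAs guide proteins of the Argonaute family to matching RNA. PIWI proteins are the branch that binds piRNAs, and they silence transposons in germ cells. Precursor transcripts are unwound and cut at the mitochondrial surface by helicases and nucleases, and Tudor domain proteins hold the PIWI proteins and their partners together. Dicer1 cuts double-stranded precursors into microRNAs and siRNAs, which are loaded onto Ago proteins. Mouse oocytes are known for an active siRNA pathway that depends on Dicer1, and loss of many piRNA pathway genes sterilises male mice while females stay fertile.

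Total counts ranged from 15149564 to 29205503 in the microdissected libraries and from 8652089 to 9978830 in MII oocytes. A limit of 3 counts, at or under which a gene was not taken as detected, was 0.103 to 0.198 CPM in the first set and 0.301 to 0.347 CPM in the second. It covers counting error only. RNA of 10 oocyte marker genes summed to 2.55 to 1914 TPM in the microdissected libraries and to 6624 to 10261 TPM in MII oocytes. RNA of 10 granulosa cell markers summed to 370.3 to 3923 TPM against 12.1 to 37.8 TPM, and that of 6 stroma markers to 460.1 to 7486 TPM against 0 to 1.29 TPM, so the microdissected libraries also held RNA of other ovarian cells. Theca markers summed to 0 to 15.2 TPM against 0.797 to 12.8 TPM, and endothelial and blood markers to 0 to 174.4 TPM against 39.7 to 65.6 TPM. By median both of these went the other way and were higher in MII oocytes. The medians were 0.837 against 7.84 TPM for theca and 3.60 against 52.9 TPM for endothelial and blood markers. The library primordial NTY replicate 3 stood apart, with 4 of 10 oocyte markers over 3 counts, summing to 2.55 TPM, and 3 of the 10 genes over 3 counts. In such bulk RNA, fewer cells of a type and less RNA per cell cannot be told apart.

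Over 3 counts were found for 3 to 8 of the 10 genes in a microdissected library and for 6 to 9 in an MII library. Dicer1 and Ago2 passed this limit in 12 of 12 microdissected libraries, Tdrd9 in 11, Piwil2 and Mael in 10, Tdrkh in 9, Mov10l1 in 8, Piwil1 and Pld6 in 1 each and Piwil4 in 0. In MII oocytes, Piwil1, Mael, Tdrkh, Tdrd9 and Dicer1 passed it in 6 of 6 libraries. Pld6, Ago2 and Mov10l1 passed it in 5, Piwil2 in 2 and Piwil4 in 0.

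**Figure D1:**
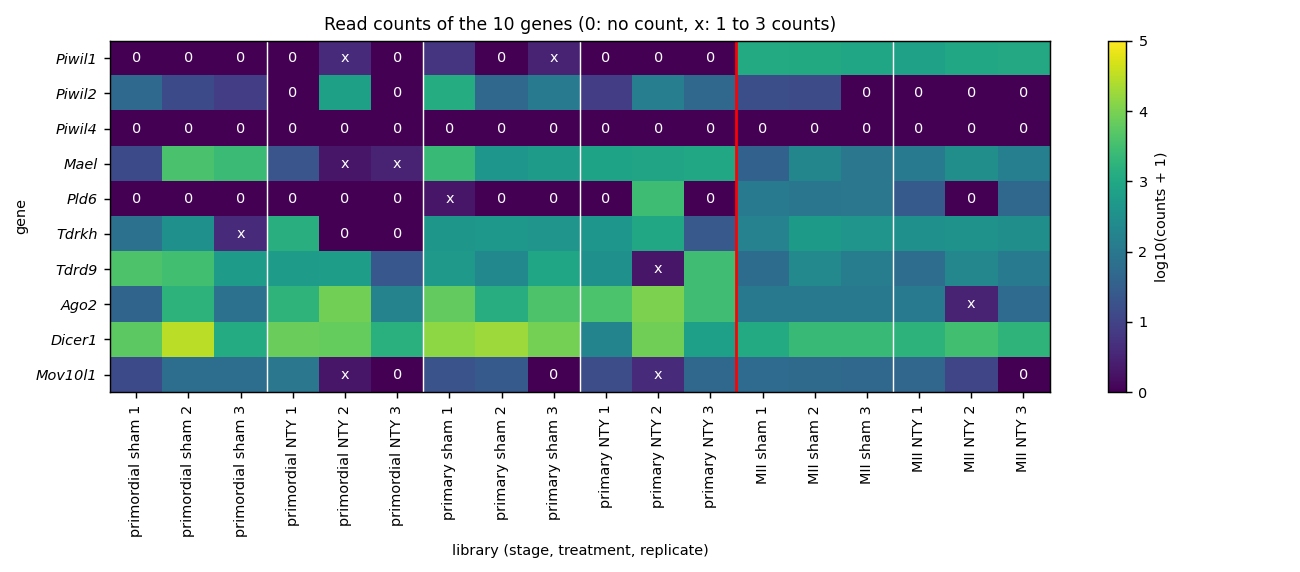
Read counts of the 10 genes (rows) in the 18 libraries (columns), as colour on a log10(counts + 1) scale, with 0 written in cells without a count and x in cells of 1 to 3 counts. White lines separate the groups and the red line separates the 12 microdissected libraries from the 6 MII libraries. Piwil1 is at 5 counts or fewer left of the red line and at 726 to 1137 counts right of it.

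Piwil1 (ENSMUSG00000029423, 5:128702524-128755474, plus strand of GRCm38), which encodes a PIWI protein that cuts RNA matching its piRNA, showed the clearest division between the sets. In MII oocytes it had 1137, 1097 and 912 counts in sham and 726, 1000 and 1056 in NTY. In primordial oocytes it had 0, 0 and 0 counts in sham and 0, 3 and 0 in NTY, and in primary oocytes 5, 0 and 2 in sham and 0, 0 and 0 in NTY. Every MII library was therefore far above every microdissected library, the lowest MII value being 83.1 CPM and the highest microdissected value 0.209 CPM. Its MII level was 65.8 ± 5.06 TPM in sham and 62.1 ± 11.8 TPM in NTY (SD, n = 3), and the libraries of the 2 groups overlapped. With a coefficient of variation of 13.1% over the 6 MII libraries, it was the steadiest of the genes detected in that stage.

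The promoter of Piwil1 is shown because this gene had the sharpest contrast in level. It is the RefSeq window on GRCm38.p6 from 250 bases before to 50 after the start, chr5:128735996-128736295, plus strand, inside the longer GENCODE gene. Capitals mark the E-box CACGTG, a motif bound by basic helix-loop-helix proteins, which begins 179 and 154 bases before the start.
Piwil1: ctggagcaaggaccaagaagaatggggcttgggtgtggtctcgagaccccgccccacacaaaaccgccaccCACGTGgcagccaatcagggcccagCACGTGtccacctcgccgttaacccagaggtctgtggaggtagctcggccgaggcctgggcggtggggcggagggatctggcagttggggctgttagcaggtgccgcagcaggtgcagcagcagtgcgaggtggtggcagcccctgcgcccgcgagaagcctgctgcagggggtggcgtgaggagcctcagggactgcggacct

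Piwil2 (ENSMUSG00000033644, 14:70372477-70429383, minus strand) encodes the PIWI protein of fetal and early germ cells, and it was found mainly in microdissected libraries. It had 50, 12 and 7 counts in primordial sham, 0, 695 and 0 in primordial NTY, 1270, 46 and 114 in primary sham and 7, 135 and 48 in primary NTY. In MII oocytes it had 15, 13 and 0 counts in sham and 0 in each NTY library. The highest level was 34.8 TPM in primary sham replicate 1 and the next 18.5 TPM in primordial NTY replicate 2, so that single libraries set the group means. Piwil4 (ENSMUSG00000036912, 9:14696230-14740733, minus strand), the nuclear PIWI protein of fetal male germ cells, had 0 counts in all 18 libraries. By counting error alone, this allows a level of up to 0.103 to 0.198 CPM in microdissected and 0.301 to 0.347 CPM in MII libraries. The spread between libraries is larger, as in the 0, 695 and 0 counts of Piwil2 in primordial NTY, so 0 counts do not cap the level in the cells.

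Mael (ENSMUSG00000040629, 1:166201201-166238747, minus strand), which encodes a protein of the germ granule and nucleus that is needed for transposon silencing in the male germ line, ranged from 1 to 3660 counts. Its counts in primordial oocytes were 12, 3660 and 2508 for sham and 20, 1 and 2 for NTY. In primary oocytes it had 2308, 420 and 545 counts in sham and 779, 825 and 982 in NTY. Mael was thus low in every primordial NTY library, at or under the limit of 3 counts in 2 of them, but sham replicate 1 of that stage was as low, with 12 counts, so the groups overlapped. The level was 158.1 ± 136.1 TPM in primordial sham, 0.650 ± 0.929 TPM in primordial NTY, 88.0 ± 90.8 TPM in primary sham and 64.6 ± 7.28 TPM in primary NTY (SD, n = 3). In MII oocytes it had 35, 199 and 94 counts in sham and 108, 297 and 145 in NTY, or 18.01 ± 14.0 and 30.7 ± 16.4 TPM, with overlapping libraries.

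The primordial NTY libraries differed in their oocyte marker RNA. Summed oocyte markers were 74.2, 605.2 and 2.55 TPM in its replicates 1, 2 and 3, against 355.8, 1914 and 484.5 TPM in primordial sham. Replicate 2 of NTY had 138.9 TPM of the germ cell helicase Ddx4 and 108.5 TPM of the oocyte growth factor Gdf9 beside 0.0813 TPM of Mael. Sham replicate 1, with 355.8 TPM of oocyte markers, had 1.47 TPM of Mael. Granulosa markers summed to 2017 to 3923 TPM in primordial NTY and to 370.3 to 2218 TPM in primordial sham. The part of cell content in the Mael difference was not tested.

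**Figure D2:**
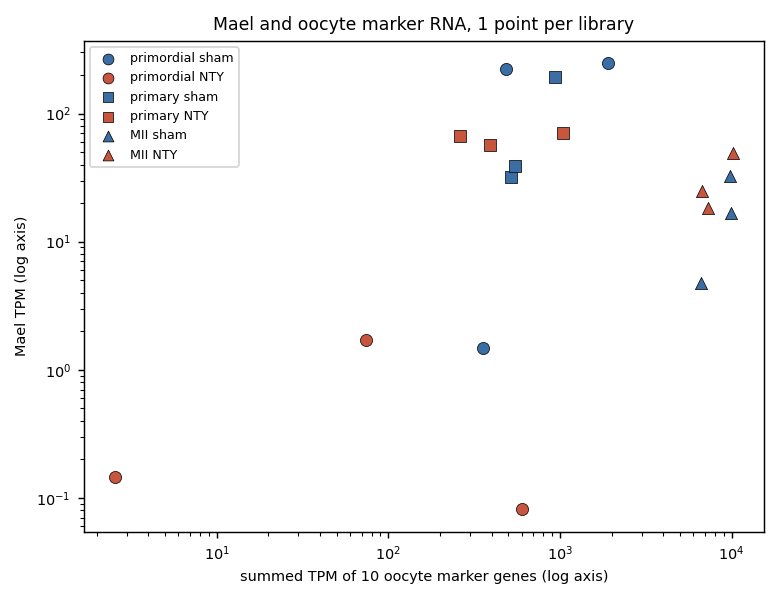
Mael level (y, TPM, log axis) against the summed TPM of 10 oocyte marker genes (x, log axis), 1 point per library, with shape for stage and colour for treatment. The 3 primordial NTY libraries lie at 0.0813 to 1.72 TPM of Mael over oocyte marker sums of 2.55 to 605.2 TPM.

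The Mael promoter is shown because of these differences. The window is chr1:166238695-166238994, minus strand, of GRCm38.p6, with the E-box in capitals, 223 bases before the start.
Mael: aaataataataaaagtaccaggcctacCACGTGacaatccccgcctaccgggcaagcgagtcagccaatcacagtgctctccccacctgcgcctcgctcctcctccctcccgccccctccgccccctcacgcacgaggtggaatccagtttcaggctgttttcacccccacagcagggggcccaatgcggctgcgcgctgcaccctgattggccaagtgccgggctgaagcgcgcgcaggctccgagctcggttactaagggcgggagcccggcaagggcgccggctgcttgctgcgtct

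Among the genes of piRNA processing, Pld6 (ENSMUSG00000043648, 11:59783897-59787645, minus strand) encodes a nuclease of the outer mitochondrial membrane. In MII oocytes it had 117, 90 and 94 counts in sham and 25, 0 and 48 in NTY, or 15.6 ± 0.946 and 4.07 ± 4.03 TPM (SD, n = 3). Every NTY library was below every sham library at that stage, as for 5.72% of all 12209 genes tested there. Of the 12 microdissected libraries, 10 had 0 counts, primary sham replicate 1 had 1, and primary NTY replicate 2 had 2784, or 221.6 TPM. That library stood alone for Pld6, and the level was not found in the other 2 libraries of its group.

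Mov10l1 (ENSMUSG00000015365, 15:88982909-89055152, plus strand) encodes the RNA helicase that feeds piRNA precursors into processing, and it was low at every stage. It had 12, 62 and 63 counts in primordial sham, 93, 1 and 0 in primordial NTY, 18, 25 and 0 in primary sham and 14, 3 and 47 in primary NTY. MII sham had 54, 53 and 48 counts and MII NTY 44, 10 and 0, or 3.39 ± 0.293 and 1.26 ± 1.62 TPM (SD, n = 3). The MII groups overlapped on the TPM scale, where NTY replicate 1, at 3.08 TPM, lay just above sham replicate 1, at 3.06 TPM.

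Tdrkh (ENSMUSG00000041912, 3:94413273-94434668, plus strand) encodes a Tudor and KH domain protein that anchors PIWI proteins at mitochondria. Primordial oocytes gave 74, 324 and 3 counts for sham and 1387, 0 and 0 for NTY. In primary oocytes it had 434, 454 and 404 counts in sham and 421, 962 and 24 in NTY, and in MII oocytes 166, 535 and 407 in sham and 321, 360 and 312 in NTY. Primary sham, at 9.39 ± 1.07 TPM, and MII NTY, at 15.7 ± 1.02 TPM, were its evenest groups, whereas primordial NTY rested on replicate 1 alone. Tdrkh shares 2255 exon bases with the antisense gene Oaz3, which had 59 to 556 counts in MII libraries and 0 in the microdissected ones. Whether reads were counted by strand is not given in the sources used here, so the MII counts of the 2 genes may share reads and are uncertain.

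Tdrd9 (ENSMUSG00000054003, 12:111971559-112068854, plus strand) encodes a Tudor domain helicase of the PIWI complex. The sham libraries of primordial oocytes gave 4094, 3020 and 580 counts, and those of NTY 580, 639 and 22. In primary oocytes it had 492, 210 and 924 counts in sham and 321, 1 and 2874 in NTY, and in MII oocytes 57, 221 and 128 in sham and 60, 203 and 107 in NTY. Primordial sham was highest, at 80.8 ± 73.0 TPM against 11.0 ± 9.12 TPM in primordial NTY (SD, n = 3). The 2 groups were separated by almost nothing, since the lowest sham library and the highest NTY library both had 16.6 TPM. MII sham and NTY were at 7.11 ± 4.55 and 6.62 ± 3.84 TPM.

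The E-box was present in the RefSeq windows of Piwil1, Mael, Pld6, Tdrd9 and Mov10l1, which are shown because they share this motif. They are 5 of the 8 genes with a window, against 8.09% of 27025 genes. By window it is 5 of the 10 windows of those 8 genes, against 7.15% of the 32851 windows of all genes. Pld6 also has a window without the motif, which reads the same on both strands. Of 14281 windows rich in CG (10 or more), 10.9% hold it. Among 28 other small RNA pathway genes with a window, 4 have it, namely Ddx4, Fkbp6, Tdrd1 and Tnrc6b. The remaining sites, with up to 20 bases on each side, lie at chr11:59787665-59787710 (minus strand, Pld6), chr12:111971374-111971419 and chr12:111971444-111971489 (plus strand, Tdrd9) and chr15:88982744-88982773 (plus strand, Mov10l1).
Pld6: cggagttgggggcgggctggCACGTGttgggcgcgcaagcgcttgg
Tdrd9, first site: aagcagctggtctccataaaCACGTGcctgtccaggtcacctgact
Tdrd9, second site: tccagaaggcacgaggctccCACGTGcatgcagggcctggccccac
Mov10l1: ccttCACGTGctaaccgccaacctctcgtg
The genes with the motif had unlike patterns of level, Piwil1 and Pld6 being at 0 in most microdissected libraries and Tdrd9 and Mael reaching 160.2 and 248.0 TPM there. The MYB core AACNGTT was found on either strand in 1 of the 8 genes, Piwil4, which also has a window without it. The E2F site TCCCGC was found in 2, Mael and Dicer1. Of all windows, 4.45% hold the MYB core and 19.98% the E2F site, which are shares of windows and not of genes. The motifs were chosen after the values were seen, and a match is a description of the letters.

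Ago2 (ENSMUSG00000036698, 15:73095844-73184935, minus strand) encodes the Argonaute protein that cuts target RNA, and it is used by somatic cells as well as oocytes. For primordial oocytes the counts were 40, 1678 and 73 with sham and 1825, 8814 and 171 with NTY, and in primary oocytes 6279, 1312 and 4016 in sham and 3864, 10433 and 2873 in NTY. In MII oocytes it had 102, 104 and 102 counts in sham and 113, 2 and 55 in NTY. Its level was 37.6 ± 26.3 TPM in primary sham and 54.7 ± 42.9 TPM in primary NTY, and 2.02 ± 0.265 and 1.18 ± 1.16 TPM in MII sham and NTY (SD, n = 3). Single libraries ranged from 12.4 to 104.0 TPM in primary oocytes and from 0.0410 to 2.36 TPM in MII oocytes. Primordial libraries, at 0.604 to 88.5 TPM, overlapped the MII range. The share of all genes higher in every primary than in every MII library was not counted. Granulosa and stroma markers were higher in the primary and in the primordial libraries than in MII libraries. The part of somatic RNA in the Ago2 level was not tested.

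Dicer1 (ENSMUSG00000041415, 12:104687742-104751952, minus strand), the enzyme that makes both microRNAs and siRNAs, had the highest median of the 10 genes in microdissected libraries. Counts of 5454, 30954 and 1182 were found in sham libraries of primordial oocytes and of 7306, 6440 and 1483 in those of NTY. In primary oocytes it had 13838, 18249 and 9053 counts in sham and 182, 8151 and 663 in NTY, so that NTY lay below sham in every library by counts and by plain CPM. How many of all genes did so by plain CPM was not counted. On the TPM scale, and with TMM library sizes, the groups overlapped, with 110.3 ± 39.3 TPM in sham and 24.8 ± 37.5 TPM in NTY (SD, n = 3). In MII oocytes it had 1117, 2491 and 2488 counts in sham and 1733, 3009 and 1797 in NTY, or 34.5 ± 16.3 and 37.9 ± 12.01 TPM. Mouse oocytes use a shorter Dicer1 form from an alternative promoter, and counts per gene do not separate it from the somatic form.

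**Figure D3:**
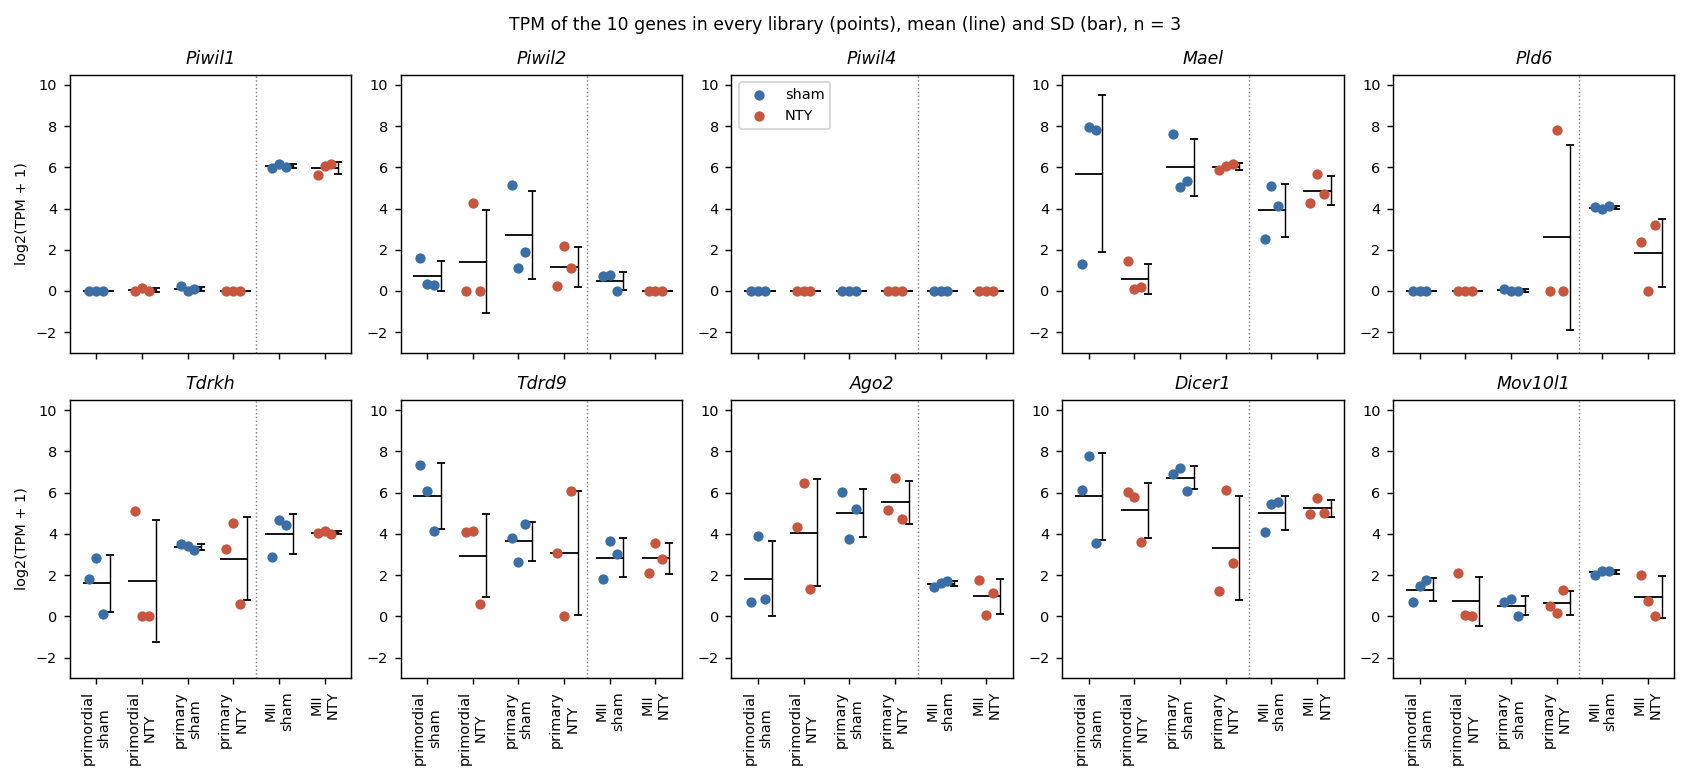
Level of each of the 10 genes as log2(TPM + 1) in every library (points, blue for sham and red for NTY), with the mean of each group as a line and the SD as a bar (n = 3). The dotted line separates microdissected from MII libraries. Of the MII panels, Piwil1 is the highest by median at 65.1 TPM, and Mael is lowest in primordial NTY.

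By median over sham and NTY libraries together, the genes had a different order at each stage. In MII oocytes the medians over 6 libraries were 65.1 TPM for Piwil1, 36.9 for Dicer1, 21.4 for Mael, 16.1 for Tdrkh, 11.3 for Pld6, 6.54 for Tdrd9, 3.07 for Mov10l1, 1.91 for Ago2 and 0 for Piwil2 and Piwil4. Piwil1 was above Dicer1, and Dicer1 above Mael, in 6 of 6 libraries, while Mael was above Tdrkh in 4 of 6. All neighbours in that order had overlapping ranges over libraries. In primary oocytes Dicer1 (67.7 TPM) and Mael (61.6 TPM) led, followed by Ago2 (35.1), Tdrd9 (10.3), Tdrkh (9.20), Piwil2 (1.92) and Mov10l1 (0.522). In primordial oocytes the order was Dicer1 (59.6 TPM), Tdrd9 (16.6), Ago2 (7.79), Mael (1.59), Tdrkh (1.31), Mov10l1 (1.17) and Piwil2 (0.236). Neighbours in these orders also had overlapping ranges, so their places are uncertain. Dicer1 was above Mael, and Tdrd9 above Tdrkh, in 3 of 6 primary libraries. Tdrd9 was above Ago2, and Ago2 above Mael, in 3 of 6 primordial libraries. The primordial Mael median joins medians of 224.8 TPM in sham and 0.146 TPM in NTY.

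Set beside the rest of the transcriptome, a clean split between the sets was not unusual. Of 14002 genes with a mean of at least 1 TPM, 23.1% were higher in every MII library than in every microdissected library and 2.99% were lower. Of the 10 genes, 9 passed that filter, and 1, Piwil1, was higher and 0 were lower. The mean was taken over all 18 libraries, so a gene can pass by its MII level alone. Piwil1 did so, with a mean of 0.0267 TPM in microdissected libraries. Without the filter, 12.7% of 28252 genes were higher and 1.52% lower, and of the 10 genes again 1 and 0. Of 45 pathway genes in 4 lists, 43 passed the filter, 6 were higher (Piwil1, Tdrd1, Tdrd12, Rnf17, Asz1 and Spocd1) and 4 were lower (Ago1, Tnrc6a, Ddx6 and Tut4). By list, 1 of 6 PIWI and Argonaute genes, 3 of 7 Tudor domain genes, 2 of 14 genes of piRNA biogenesis and 0 of 16 microRNA and siRNA genes were higher. In the same order of lists, 1, 0, 0 and 3 genes were lower. The lists were not tested against each other.

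Asz1, a germ cell protein at mitochondria, had 104.7 to 182.6 TPM in MII oocytes and 0 to 34.4 TPM in microdissected libraries. Tdrd12, Rnf17 and Tdrd1, all Tudor domain proteins, averaged 34.7, 24.0 and 23.5 TPM in MII oocytes. Their MII ranges were 14.7 to 50.3, 7.74 to 38.1 and 4.91 to 35.9 TPM. The highest microdissected values were 5.20, 7.58 and 4.21 TPM, so Rnf17 and Tdrd1 were separated by a narrow margin. Ddx4, the germ cell RNA helicase, averaged 310.1 TPM in MII oocytes but overlapped the microdissected libraries, which reached 378.2 TPM. Lin28a, which blocks maturation of let-7 microRNAs, averaged 165.5 TPM in MII oocytes beside 0 to 377.5 TPM in microdissected libraries, and Ago3 16.4 TPM beside 0.0842 to 79.03 TPM, so both overlapped. Snd1 had a lower range in MII oocytes, 7.79 to 26.7 TPM against 24.4 to 911.7 TPM, with a narrow overlap. Among the genes lower in every MII library, Ddx6, an RNA helicase of P-bodies, was at 0.293 to 3.57 TPM in MII oocytes and 70.7 to 700.3 TPM in microdissected libraries, and Tnrc6a, the Ago partner, at 3.97 to 9.10 against 51.4 to 500.6 TPM.

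**Figure D4:**
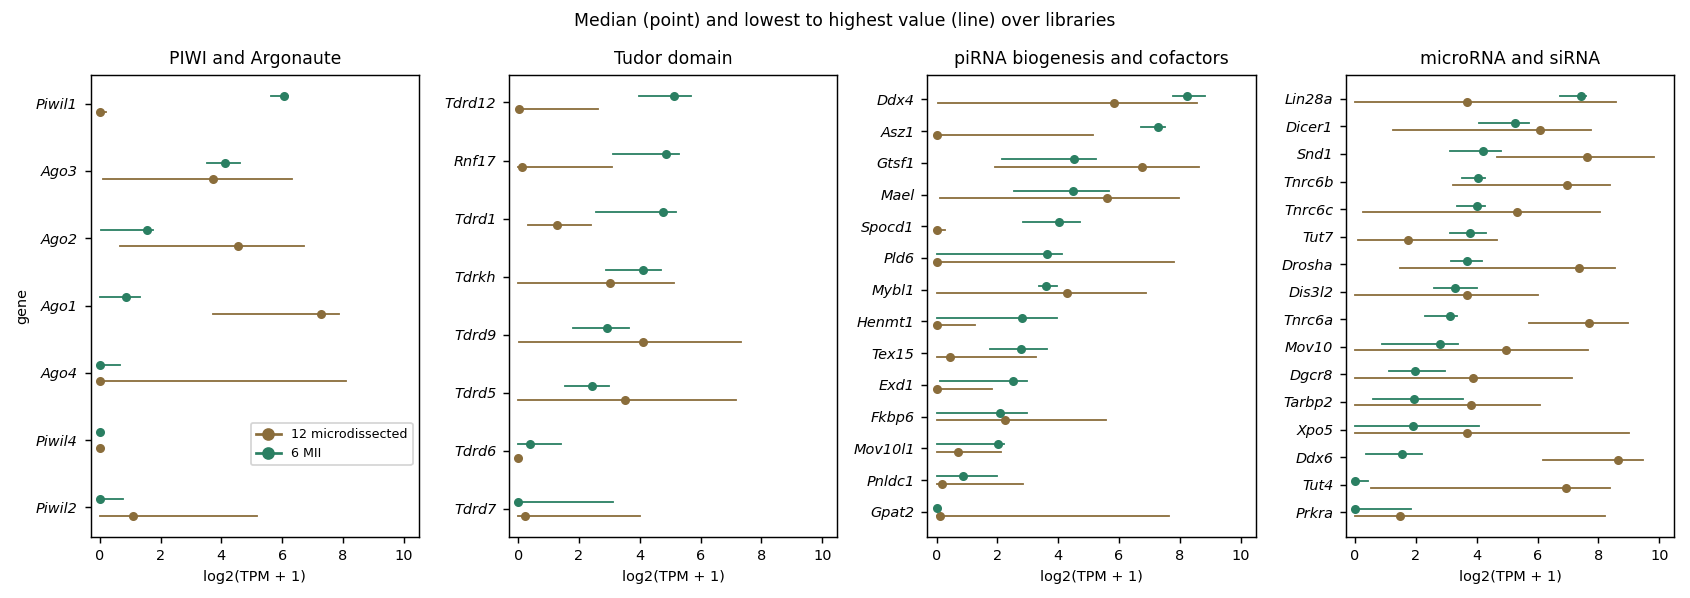
Median (point) and lowest to highest value (line) of 45 pathway genes in 4 lists over the 12 microdissected (brown) and 6 MII (green) libraries, on a log2(TPM + 1) axis. Piwil1, Asz1 and Spocd1 are apart from the microdissected range on the right, and Ago1, Tnrc6a and Ddx6 on the left.

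The NTY groups were then compared with sham at each stage, by the quasi-likelihood test of edgeR with Benjamini-Hochberg adjustment over all genes tested. In primordial oocytes 7 of the 10 genes passed the filter on low counts and 0 were called (adjusted p under 0.05), with 0.00950% of the 10522 genes called. At an unadjusted p under 0.05 it was 1 gene, Mael, against 10.9% of all genes. By groups that did not overlap, 0 were higher, against 5.44% of all genes, and 1 was lower, against 2.97%. Their log2 fold changes ran from -7.91 (Mael) to 2.64 (Piwil2), with SE of 1.69 to 3.54 and a median of -0.54 beside 0.12 for all genes. The median was above 0 under 2 of 13 alternatives, and Piwil2 turned to -7.93 without primordial NTY replicate 2. Mael had a log2 fold change of -7.91 (SE 3.54, edgeR adjusted p = 0.42), and the libraries overlapped. DESeq2 called it, with an adjusted p of 0.000138, and called 11.5% of all genes in the same comparison. The gene lower in 3 of 3 NTY libraries was Tdrd9, with -3.0005 (SE 2.78, edgeR adjusted p = 0.766).

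In primary oocytes the same 7 genes were tested and 0 were called by edgeR, with 0% of the 10522 genes called. At an unadjusted p under 0.05 it was 0 of the 7, against 8.15% of all genes, and DESeq2 called 0 of them and 6.63% of all genes. Log2 fold changes ran from -2.18 (Piwil2) to 1.33 (Tdrd9), with SE of 1.70 to 3.01. The median was 0.70 beside -0.10 for all genes, and it turned sign under 3 of 14 alternatives, with -0.69 by voom, -0.57 by limma on log2(TPM + 1) and -0.46 without primary NTY replicate 3. Without that library Tdrd9 was at -1.29, and without primary sham replicate 1 Piwil2 was at 0.26. With TMM library sizes 0 of the 7 were apart from sham in either direction, against 2.27% of all genes higher and 11.6% lower. Dicer1, apart by plain CPM, a scale on which the share of all genes was not counted, had a log2 fold change of -1.59 (SE 1.70, edgeR adjusted p = 1).

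In MII oocytes 8 of the 10 genes were tested and 0 were called, with 0% of the 12209 genes called by edgeR and 0.238% by DESeq2, which called 0 of the 8. At an unadjusted p under 0.05 it was 0 of the 8, against 2.29% of all genes. The spread between libraries was smaller here, with SE of 0.31 to 1.49, and log2 fold changes ran from -1.83 (Pld6) to 0.89 (Mael) around a median of -0.03 beside 0.00 for all genes, which turned sign under 3 of 12 alternatives. Pld6 had -1.83 (SE 1.34, edgeR adjusted p = 1.00). It was lower in 3 of 3 NTY libraries, as were 5.72% of all genes, but the test did not call it. Of all genes 2.63% were higher in every NTY library, and 0 of the 8. Genes with any count numbered 12782 to 13608 in the MII NTY libraries and 15442 to 18239 in MII sham. The part of this library-wide difference in the lower counts of single genes was not tested. Mov10l1, lower in 3 of 3 NTY libraries by plain CPM but not by TPM or with TMM library sizes, had -1.43 (SE 1.49, edgeR adjusted p = 1.00). The share of all genes lower by plain CPM was not counted.

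Primary oocytes were compared with primordial oocytes in each treatment, since both were taken to come from the same library method. In sham, 0 of 7 genes were called by edgeR, with 0.00950% of all genes called, 0 passed an unadjusted p of 0.05, against 9.28% of all genes, and DESeq2 called 0 of them and 7.31% of all genes. Tdrkh was higher in every primary sham library, as were 12.5% of all genes (1.74% were lower, and 0 of the 7), with a log2 fold change of 1.45 (SE 2.95, edgeR adjusted p = 1). Ago2 was higher in 3 of 3 primary sham libraries by plain CPM, but not by TPM or with TMM library sizes, with 2.48 (SE 2.24, edgeR adjusted p = 0.972). The nearest libraries had 58.1 CPM in primary and 57.5 CPM in primordial sham, and the share of all genes by plain CPM was not counted. In NTY, 0 of 7 were called by edgeR, with 0% of all genes called, and 1, Mael, passed an unadjusted p of 0.05, against 9.97% of all genes. Mael had a log2 fold change of 6.85 there (SE 3.37, edgeR adjusted p = 0.499) and was higher in 3 of 3 primary libraries, as were 3.23% of all genes, while 4.61% were lower, and 0 of the 7. DESeq2 called Mael, with an adjusted p of 0.00108, and 10.7% of all genes.

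The NTY effect in primary oocytes was also set against that in primordial oocytes by an interaction term. By edgeR 0 of 7 genes were called, with 0.00950% of all genes called, and 0 passed an unadjusted p of 0.05, against 11.8% of all genes. Mael, named here because DESeq2 called it and so chosen after its values were seen, had a difference of 8.10 on the log2 scale (SE 4.18, edgeR adjusted p = 0.449), and an adjusted p of 0.00663 by DESeq2, which called 11.6% of all genes. The 3 Mael results share the primordial NTY libraries and are not separate evidence. Without primordial NTY replicate 3, the library poorest in oocyte markers, the log2 fold change of Mael against primordial sham was -7.52 (edgeR adjusted p = 0.535). Replicate 1, which stayed in that fit, had 74.2 TPM of oocyte markers, against 355.8 to 1914 TPM in primordial sham. The part of cell content was not tested by this omission.

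**Figure D5:**
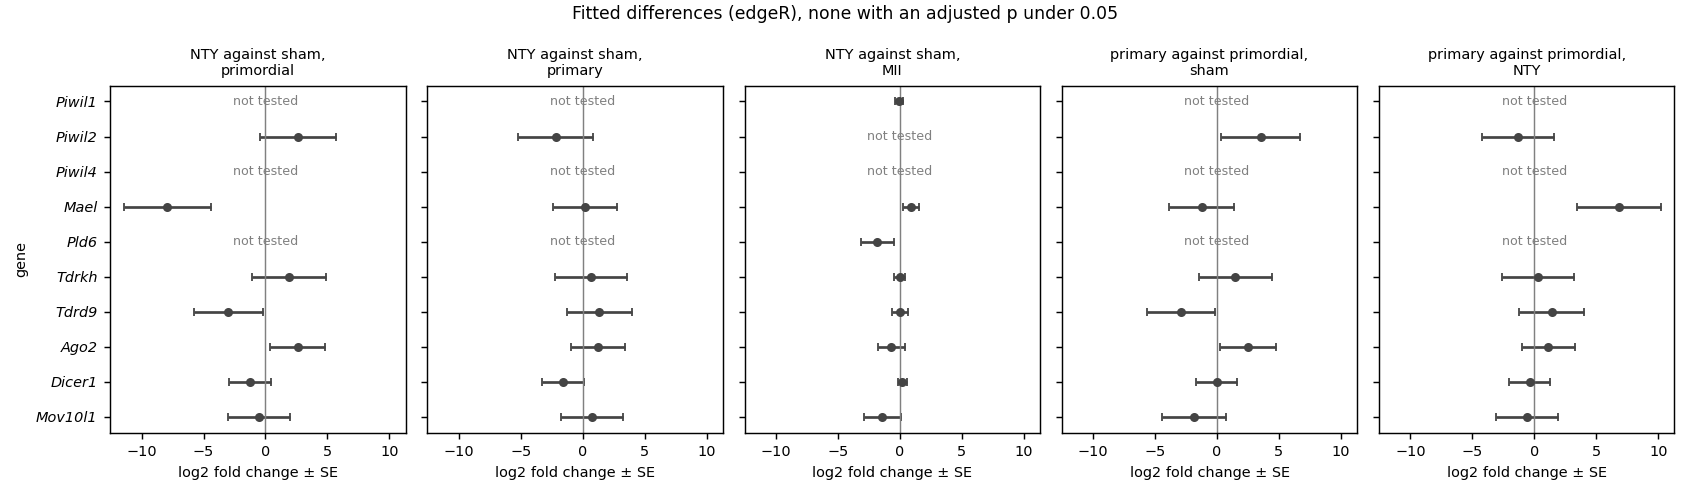
Fitted log2 fold changes of the tested genes (points) from edgeR in each comparison, with approximate standard errors derived from the F statistic (bars). Mael lies at -7.91 for NTY in primordial oocytes and at 6.85 for primary against primordial oocytes in NTY, and no gene had an adjusted p under 0.05.

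The other pathway genes gave no calls either. Of the 45 genes in the 4 lists, 38 were tested in microdissected and 37 in MII libraries, and edgeR called 0 in either direction in the 6 comparisons. The lowest adjusted p was 0.405, 0.500 and 0.877 for NTY in primordial, primary and MII oocytes, 0.625 and 0.439 for the stages in sham and NTY, and 0.259 for the interaction.

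For the 3 genes with the highest mean TPM, the most similar profiles over the 18 libraries were measured by Pearson's r of log2(TPM + 1). They were Ppp2r2d (0.91) and Pafah1b2 (0.87) for Mael, Slc20a1 (0.82) and Kif4 (0.78) for Dicer1, and Fmnl3 (0.89) and Dym (0.88) for Tdrd9. These libraries share stage and library method, and the values are a description.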

How the data were processed

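Libraries were grouped by stage and treatment from their labels, and table columns were matched by name. The authors deposited whole-number read counts per gene, not normalized, and TPM values. The submitters' processing notes name Trim Galore 0.4.1, TopHat2, featureCounts and mm10. Gene lengths, annotation, strand and the handling of multiply mapped reads are not given in the sources used here, and reads of overlapping genes may be shared. Coordinates come from GENCODE M21 on GRCm38 and promoters from RefSeq on GRCm38.p6, which held 8 of the 10 genes.

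Counts were tested with edgeR 4.0.16 (R 4.3.3, quasi-likelihood with robust estimation, TMM, filterByExpr by group, adjusted p under 0.05). The 12 microdissected libraries shared 1 fit and the 6 MII libraries had their own. The edgeR test gives no SE. Each SE printed is the size of the log2 fold change divided by the square root of its F statistic, and is approximate. Alternatives were DESeq2 1.42.0 without its Cook filter, limma 3.58.1 (voom with quality weights, and log2(TPM + 1) for genes of at least 1 TPM in at least 3 libraries), RLE normalization, any count, only the groups compared, a replicate block, summing replicates 2 and 3 of primary NTY (similar codes leave their separate origin unsure) and the omission of each library. Levels used Python 3.11.15 and pandas 2.3.3. The edgeR, DESeq2 and voom fits were run on simulated counts. Recovery of known changes was required only at a dispersion far below that of these libraries, so that requirement does not measure their precision here. No 2 libraries of the same group were copies of each other, and pairs across groups were not checked.

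The genes and lists were chosen with earlier results of these data known. Fold changes are given for genes with an unadjusted p under 0.05 or with groups that do not overlap in CPM with TMM library sizes, also for Dicer1, Mov10l1 and Ago2 where plain CPM alone separated the groups, added after their values were seen, and for the ends of printed ranges, and pathway genes by separation or as the 3 highest of each list in MII oocytes.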

Additional observations from a re-analysis of the deposited data

How the results depend on the processing

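The number of the 10 genes called was 0 by edgeR in all 6 comparisons, and remained 0 with each library left out in turn (0 to 0). DESeq2 called 1 gene, Mael, in 3 comparisons: NTY in primordial oocytes (log2 fold change -7.80), primary against primordial oocytes in NTY (7.005) and the interaction (8.42). The cause was not tested. Fold changes were recomputed for Mael, Piwil2, Tdrd9, Dicer1, Mov10l1, Pld6, Ago2 and Tdrkh in the comparisons where they are printed. Directions reversed for Piwil2 in NTY primordial oocytes by voom (-1.57) and without primordial NTY replicate 2 (-7.93), for Piwil2 in NTY primary oocytes without primary sham replicate 1 (0.26), and for Tdrd9 in NTY primary oocytes by limma on log2(TPM + 1) (-0.57), by voom (-1.28) and without primary NTY replicate 3 (-1.29). With each library left out, Mael ranged from -10.03 to -7.37, 6.31 to 8.97 and 7.55 to 10.21 in the comparisons where DESeq2 called it, Piwil2 from -7.93 to 4.34 and -3.66 to 0.26 for NTY in primordial and primary oocytes, and Tdrd9 from -1.29 to 1.97 for NTY in primary oocytes. The median log2 fold change without primordial NTY replicate 1 was -3.45 for NTY in primordial oocytes, beside -0.54, and 4.77 for the interaction, beside -0.34. The sign of the median turned under at least 2 alternatives in each of the 6 comparisons, and under 9 of 19 for the interaction. For primary against primordial oocytes the median was -0.03 in sham, turning under 7 of 13, and 0.27 in NTY, turning under 3 of 14. The 1 gene above all microdissected libraries in MII oocytes, Piwil1, stayed 1 under all alternatives, with 1 to 1 when each library was left out.

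Same-numbered libraries did not deviate together (correlations of -0.063 to 0.066), so the numbers were not taken as pairs. With a replicate block 0 genes were called in each comparison, the lowest adjusted p being 0.763 for the interaction. With 3 libraries a group and a common dispersion of 3.59 in microdissected against 0.542 in MII libraries, the precision of the microdissected comparisons is low.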
